A study of Homo sapiens with 6 samples.

Results

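The deposited list of chromatin regions bound by the tandem Tudor domain (TTD), a histone reader in human UHRF1, holds 31569 peaks, and 1469 of them lie on chromosome 20. They were chosen by chromosome alone, and the chromosome was selected on the number of peaks per Mb, which is highest there. Peaks per Mb and cover are therefore given against other chromosomes as a description, without a test. The filling of bins and windows, the distances between peaks and the share of genes with a peak depend on them in part. These measures are given in the same way, and none is a separate finding. The 1469 peaks span 4538910 bp, or 7.04% of the 64.4 Mb chromosome. Their widths reach from 270 to 30600 bp around a median of 2340 bp.

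In chromatin interacting domain precipitation (CIDOP), a purified reading domain replaces the antibody of a ChIP experiment. The study pulled down native mononucleosomes, released with micrococcal nuclease from untreated HepG2 cells, with GST-tagged TTD. It also made H3K9me2 ChIP and input libraries from these cells, with 2 biological replicates of each of the 3 kinds. HepG2 is an established human cell line from a hepatoblastoma, so these peaks describe 1 cancer-derived liver line and an isolated domain, not full-length UHRF1 in liver. Both TTD replicates were averaged before the peaks were called, and the list gives a position and a width for each peak but no height. No error between replicates can therefore be given, and the 95% Wilson intervals below cover counting error only. HepG2 is known to carry extra copies of chromosome 20. Copy number was not measured here, as the input libraries were not analysed, and the methods name no correction for it. From the peak list alone, the number of copies of the chromosome and the density of peaks per copy cannot be told apart.

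UHRF1 is a multidomain protein that binds hemimethylated DNA after replication and brings the maintenance methyltransferase DNMT1 to it. Its tandem Tudor domain holds the tail of histone H3 methylated at lysine 9, and the study asks how methylation of lysine 4 on the same tail adds to that contact. H3K9me2 lies in broad inactive blocks, while H3K4me1 is the mark of enhancers, the distal elements that carry much of the cell-type-specific regulation of a hepatocyte-like cell. Chromosome 20 is a small metacentric chromosome. It carries FOXA2 and HNF4A, both central transcription factors of the liver lineage, and many clusters of secreted epithelial proteins.

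The sequences of 5 peaks show what DNA the list holds. Each is the 200 bp around the midpoint of a peak on the plus strand of hg38, with CpG dinucleotides in capitals. The set holds the extremes of width, the widest peak of the most densely covered 100 kb, and the peaks nearest the transcription start sites (TSSs) of HNF4A and FOXA2.
Widest peak, chr20:22424241-22424440: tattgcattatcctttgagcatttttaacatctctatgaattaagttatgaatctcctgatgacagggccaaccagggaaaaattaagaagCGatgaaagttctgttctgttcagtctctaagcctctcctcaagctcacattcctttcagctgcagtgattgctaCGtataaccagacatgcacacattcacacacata
Narrowest peak, chr20:44125406-44125605: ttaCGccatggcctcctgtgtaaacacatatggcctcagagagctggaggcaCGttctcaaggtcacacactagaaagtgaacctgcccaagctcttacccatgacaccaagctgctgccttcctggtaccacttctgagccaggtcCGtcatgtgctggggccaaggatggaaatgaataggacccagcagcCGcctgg
Widest peak of the densest window, chr20:12978256-12978455: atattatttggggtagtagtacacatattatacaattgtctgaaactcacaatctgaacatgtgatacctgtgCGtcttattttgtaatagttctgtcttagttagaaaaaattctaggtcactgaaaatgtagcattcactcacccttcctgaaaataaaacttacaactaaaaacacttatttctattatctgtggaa
Nearest the TSS of HNF4A, chr20:44352051-44352250: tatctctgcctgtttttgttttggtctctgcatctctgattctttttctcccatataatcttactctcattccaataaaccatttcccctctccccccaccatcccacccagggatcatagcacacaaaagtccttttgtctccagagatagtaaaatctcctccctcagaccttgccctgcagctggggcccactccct
Nearest the TSS of FOXA2, chr20:22585776-22585975: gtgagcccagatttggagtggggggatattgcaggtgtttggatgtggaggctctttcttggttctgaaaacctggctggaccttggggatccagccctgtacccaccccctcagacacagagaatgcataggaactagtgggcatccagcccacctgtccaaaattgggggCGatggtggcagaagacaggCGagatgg

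The widest peak, chr20:22409041-22439640, spans 30600 bp in the minus-strand lncRNA ENSG00000204684, and its 200 bp hold 2 CpGs. The narrowest, chr20:44125371-44125640, spans 270 bp within JPH2, which encodes a junctophilin, and its 200 bp hold 4 CpGs. Near HNF4A, the peak chr20:44351061-44353240 has 15.6 CpGs per kb but none in its central 200 bp. The peak chr20:22585321-22586430 contains the TSS of FOXA2 and has 48.6 CpGs per kb, of which 2 are in the 200 bp shown.

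Over all 1469 peaks the sequence was close to that of the chromosome around them. The median GC content of the peaks was 45.0% (quartiles 41.6% and 48.5%), against 43.8% over the bases of chromosome 20. Per kb, the peaks had a median of 10.3 CpGs and the chromosome a mean of 12.1, which are unlike measures. By means on both sides, the central 300 bp of the peaks held 3.44 CpGs and adjoining 300 bp windows of the chromosome 3.62. In their central 300 bp, 145 of the 1469 peaks had no CpG and the richest had 32. Peaks on the other chromosomes had a median GC content of 43.1%, and chromosome 20 ranked 5 of 22 autosomes in the GC content of its peaks as in that of its whole sequence. The letters TGTTTAC, a core recognised by FOXA proteins, stood on either strand of the central 300 bp in 76 of 1469 peaks, or 5.17% (95% Wilson interval 4.15 to 6.43%). The share was 3.84% of the adjoining 300 bp windows of chromosome 20, and 6.29% (6.02 to 6.57%) of the 30100 peaks elsewhere. The median over the other autosomes was 4.57% of such windows, and chromosome 20 ranked 18 of 22 in its windows and 17 of 22 in its peaks. A match of letters describes the window and does not show that a factor is bound.

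Chromosome 20 had 22.8 peaks per Mb, followed by 17.2 on chromosome 2, 16.7 on chromosome 6, 15.5 on chromosome 17, 15.0 on chromosome 16 and 13.5 on chromosome 14. The median over the 21 other autosomes was 9.11 per Mb and the lowest value, on chromosome 19, was 5.97 per Mb. In cover, the order at the top was the same, with 7.04% on chromosome 20, 5.67% on chromosome 2 and 5.33% on chromosome 6. By length chromosome 20 ranks only 19 of 22, so that its 1469 peaks are about as many as the 1446 of chromosome 14, which is 107043718 bp long. Its 8.47 protein-coding genes per Mb rank 6 of 22, while the chromosomes with most genes differed, from 15.5 peaks per Mb on chromosome 17, with 14.2 genes per Mb, to the 5.97 of chromosome 19, with 25.2 genes per Mb.

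**Figure D1:**
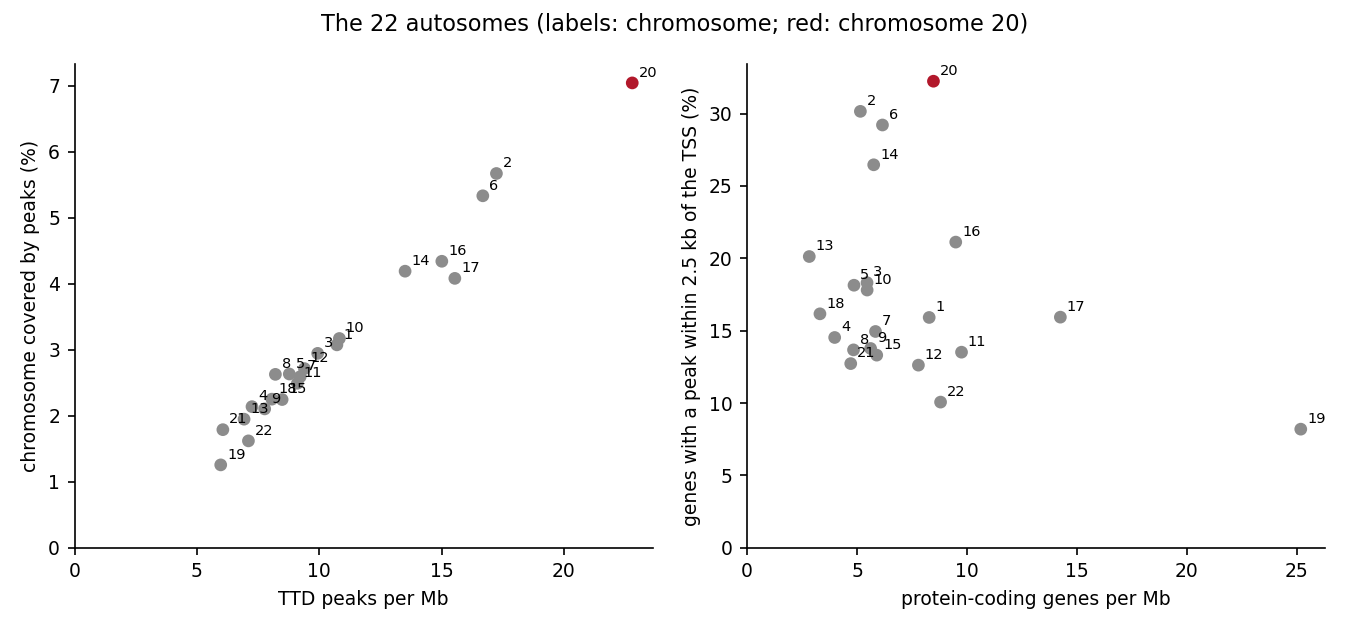
Each point is 1 of the 22 autosomes, labelled by its number, with chromosome 20 in red. Left, percent of the chromosome covered by TTD peaks against TTD peaks per Mb, where chromosome 20 stands at 22.8 peaks per Mb and 7.04%. Right, percent of protein-coding genes with a peak within 2.5 kb of the TSS against protein-coding genes per Mb, where chromosome 20 stands at 8.47 genes per Mb and 32.2%.

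Along the chromosome the peaks were spread over both arms, with steep changes between neighbouring stretches. The arms were divided at the middle of the longest stretch without a protein-coding gene, 5.56 Mb from chr20:25696854 to the beta-defensin gene DEFB115, which surrounds the centromere. The short arm, 28.5 Mb, held 718 peaks or 25.2 per Mb, and the long arm, 35.97 Mb, held 751 or 20.9 per Mb. The ratio of long to short arm was 0.828, with an exact 95% interval for the counts of 0.747 to 0.919. This difference rested on the end of the long arm. Without the gene-free stretch and the last 9.44 Mb of the chromosome, an alternative chosen after the profile had been seen, the long arm held 653 peaks or 27.5 per Mb, against 27.4 per Mb on the short arm without the stretch, a ratio of 1.002. Cover of the whole arms was 8.76% for the short arm and 5.68% for the long arm, and with both stretches left out 9.54% and 7.75%. Peaks of the short arm were also wider, with a median of 2630 bp (quartiles 1490 and 4122.5) against 2090 bp (1270 and 3360) on the long arm, or 2180 bp up to 55 Mb. Of the 44 peaks of 10 kb or more, 30 lie on the short arm and 14 on the long arm. The short arm has 6.53 protein-coding gene starts per Mb and the long arm 10.0.

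In bins of 1 Mb counted from the first base, the number of peaks ranged from 0 to 55 around a median of 20 (quartiles 10 and 33, 65 bins). Both bins without a peak lie between chr20:27000001 and chr20:29000000, in the stretch around the centromere, and 16 bins held fewer than 10 peaks. At least 2 times the mean of 22.8 per Mb was reached in 5 bins. The fullest, chr20:10000001-11000000, held 55 peaks that covered 25.4% of it and contains SLX4IP, which encodes a partner of the SLX4 nuclease scaffold, JAG1, a Notch ligand, and the synaptic gene SNAP25. Next came chr20:13000001-14000000 with 50 peaks and 23.9% cover, across SPTLC3 and ISM1, and chr20:53000001-54000000 with 49 peaks and 18.5% cover, around ZNF217 and BCAS1. The bin chr20:47000001-48000000, with NCOA3 and SULF2, held 48 peaks, and chr20:34000001-35000000, with AHCY, ACSS2 and GSS, held 46. The 10 fullest of the 65 bins together held 454 peaks, or 30.9% of those on the chromosome.

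**Figure D2:**
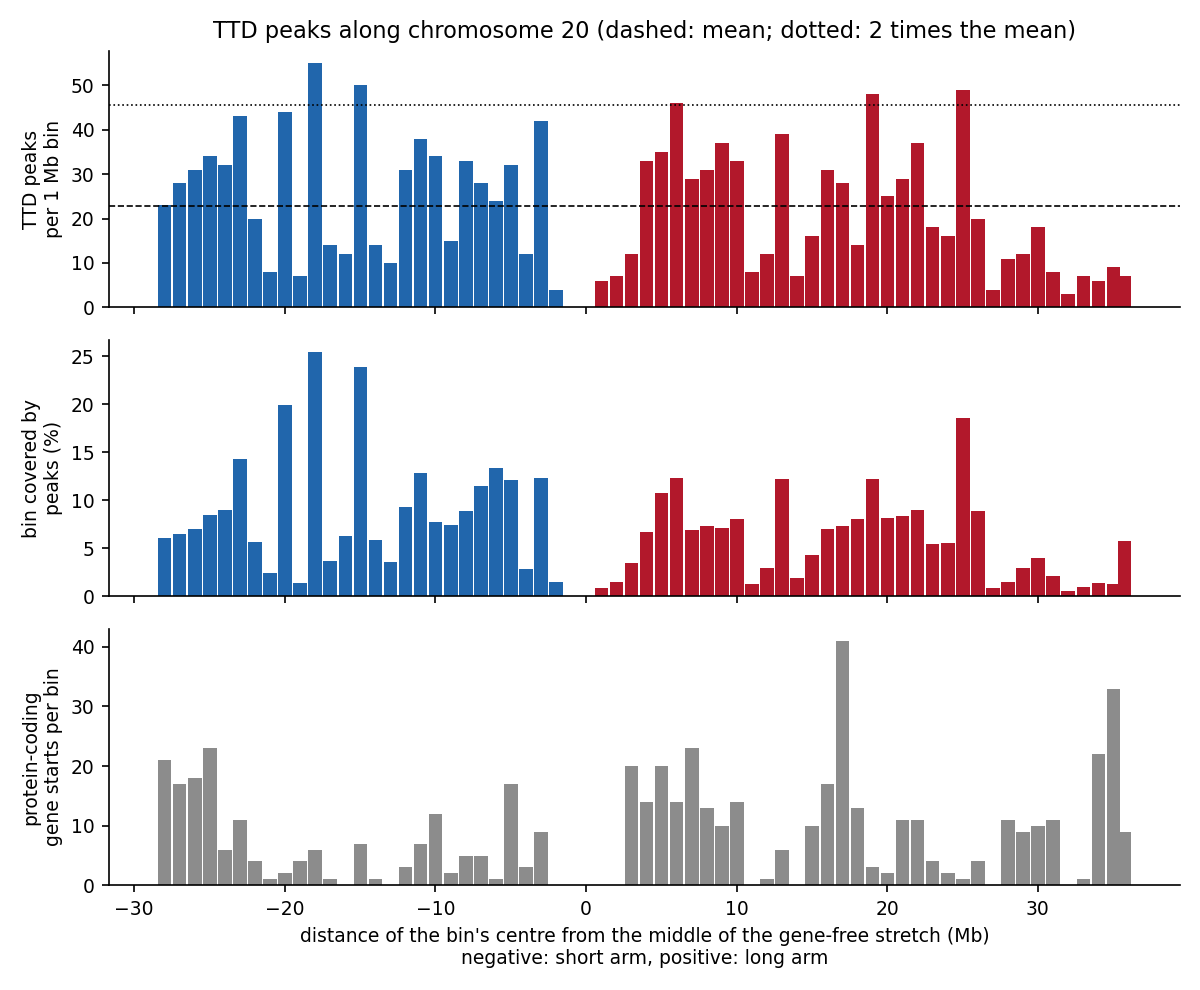
Bars give, for each 1 Mb bin of chromosome 20, the number of TTD peaks (top), the percent of the bin in peaks (middle) and the number of protein-coding gene starts (bottom), against the distance of the bin from the middle of the gene-free stretch, with the short arm in blue and the long arm in red. The fullest bin reaches 55 peaks on the short arm, the last bins of the long arm stay at 18 or fewer, and the dashed and dotted lines mark 22.8 peaks and 2 times that number.

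The end of the long arm stood apart from the rest of the chromosome. From 55 Mb to the end, 85 peaks lay in 9.44 Mb, or 9.0 per Mb, and covered 1.93%, whereas the first 55 Mb held 25.2 per Mb at 7.92% cover. This boundary was placed after the profile had been seen, and the contrast is a description. The end of the arm is rich in genes, with 11.2 gene starts per Mb against 8.00 in the first 55 Mb, yet 24.5% of its 106 protein-coding genes had a peak in the body, against 55.9% of the other 440. Its genes are shorter, with a median of 17621 bp against 27090 bp, and the part of length in this difference was not tested. By contrast the stretch from 10 to 20 Mb on the short arm, with 3.90 gene starts per Mb, held 27.3 peaks per Mb at 10.6% cover and 19 of the 44 peaks of 10 kb or more. The highest number per Mb among these stretches, 30.2, was found on the long arm from the gene-free stretch to 40 Mb, but peaks there were narrower, with a median of 1970 bp, and covered 7.32%.

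Across the 64 complete bins, the number of peaks and of protein-coding gene starts had a Spearman's rho of 0.46 and a Pearson's r of 0.25. Without the bins from 55 Mb onward and those of the gene-free stretch, rho was 0.46 over 48 bins. Neighbouring bins need not be independent, so these values only describe the profile. The rho of the number of peaks with the GC content of the bin was 0.25, and with its CpGs per kb 0.13.

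The bins show how the high number of peaks per Mb, on which the chromosome was selected, was spread. The median over its complete bins was 21.5 peaks, a value that 388 of the 2801 complete bins of the other autosomes reached, or 13.9%. Elsewhere the median was 8 and 13.7% of the bins were empty, against 3.13% on chromosome 20. The fullest bin of the list, with 73 peaks, lies on chromosome 14, and 13 bins of other autosomes held at least the 55 peaks of the fullest bin of chromosome 20. In adjoining windows of 100 kb, 27.8% of the 644 on chromosome 20 held no peak, against 55.2% of 28094 elsewhere, and 6.52% had at least 25% of their length in peaks, against 2.18%.

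The widths of the peaks differed little from those on the other chromosomes. The median was 2340 bp on chromosome 20 and 2240 bp for the 30100 other peaks, with the same lower quartile of 1370 bp and upper quartiles of 3780 and 3640 bp. Peaks under 1 kb made up 13.8% (95% Wilson interval 12.1 to 15.6%) on chromosome 20 and 13.7% (13.3 to 14.1%) elsewhere. The share of 10 kb or more was 3.00% (2.24 to 3.997%), or 44 peaks, against 2.27% (2.104 to 2.44%), and the intervals overlap. These 44 peaks contributed 14.7% of all covered bases of the chromosome, against 10.9% from peaks of that size elsewhere. In median width chromosome 20 ranked 5 of 22 autosomes, and in the share of 10 kb or more 4 of 22.

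**Figure D3:**
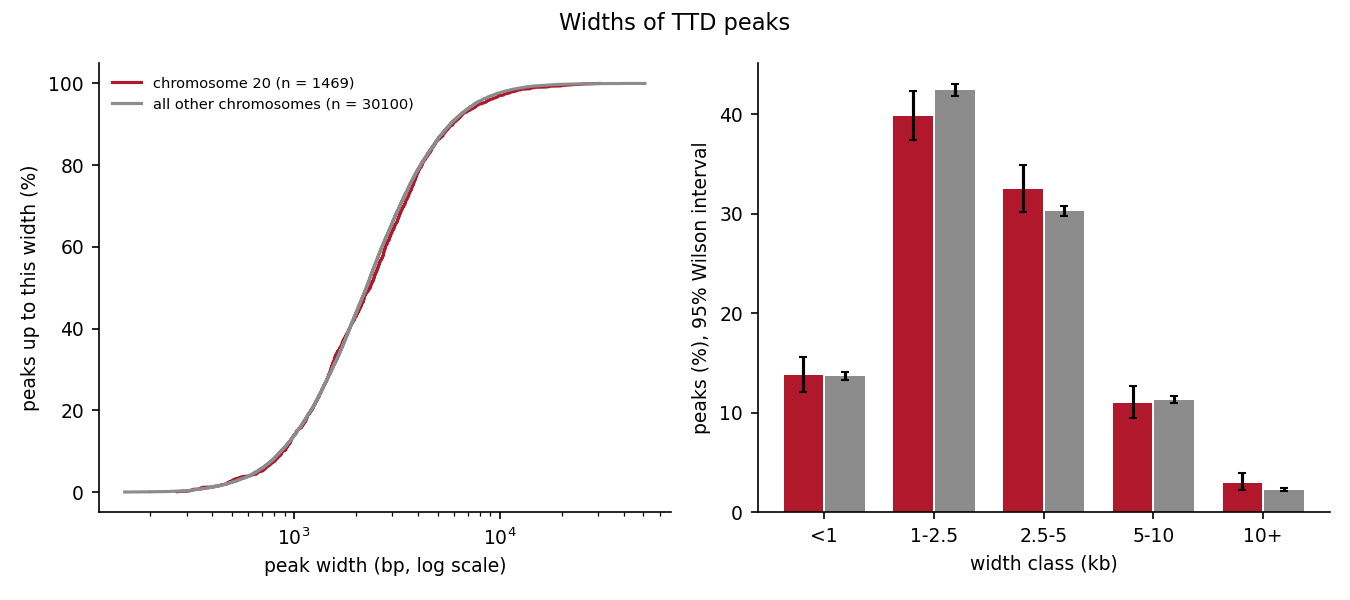
Left, percent of peaks up to a given width (bp, log scale) for the 1469 peaks of chromosome 20 (red) and the 30100 on the other chromosomes (grey), whose curves nearly coincide. Right, percent of peaks in 5 width classes with 95% Wilson intervals, from 13.8% and 13.7% under 1 kb to 3.00% and 2.27% at 10 kb or more.

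Distances between peaks depend on the number of peaks per Mb and on how the peaks are grouped. They are not independent of the selection of the chromosome. The median distance from the end of a peak to the start of the next was 13685 bp (quartiles 4155 and 43072.5 bp), against 14860 bp on chromosome 14 and 16260 bp on chromosome 2. Over the other autosomes together it was 23155 bp. Of the 1468 distances, 6.74% were under 1 kb, close to the 6.63% elsewhere, and 47.5% were under 12.5 kb, against 37.5%. Joined across less than 12.5 kb, the peaks formed 771 groups, of which 490 were single peaks and 56 held 5 or more. Those 56 groups contained 424 peaks, 28.9% of the total. The largest, chr20:53751561-53961010, held 24 peaks over 209450 bp and reaches into BCAS1, a gene first described as amplified in breast cancer.

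The window of 100 kb with the largest cover on the chromosome was chr20:12970001-13070000, of which 83.9% lay in 11 peaks, 11.9 times the cover of the chromosome. It contains the start of SPTLC3, a subunit of serine palmitoyltransferase, the first enzyme of sphingolipid synthesis, and the larger part of the lncRNA LINC01723. The lncRNA was covered over 63.6% of its length. SPTLC3 itself, chr20:13008972-13169103, was covered by 13 peaks over 56.0% of its 160 kb, the largest share among protein-coding genes of at least 10 kb. Its TSS lies in the peak chr20:13005381-13009040, and peaks of 12800, 17690 and 25170 bp follow in its introns. GC content was low in this locus, at 38.5% over the window, and the widest of its peaks, chr20:12967691-12989020, printed above, has 38.03% GC and 4.83 CpGs per kb. Beginning 151273 bp beyond the window, ISM1, which encodes the secreted protein isthmin, was covered over 40.9% of its body by 8 peaks, although its TSS window of 2.5 kb on either side held none.

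Second came chr20:22460001-22560000, with 72.1% in 12 peaks. No protein-coding gene lies in this window, and the nearer end of FOXA2 lies 20997 bp beyond it. It contains the lncRNA ENSG00000288974, covered over 91.9%, the start of ENSG00000204684, covered over 50.2%, and the 3′ part of LINC00261, a lncRNA next to FOXA2 known from definitive endoderm. LINC00261 was covered over 31.7% of its length, and its TSS lies outside the window, 6402 bp from the nearest peak. Around the TSS of FOXA2, 14 peaks lay within 100 kb, 11 of them on the downstream side, and 35.7% of these 200 kb was in peaks. The gene itself, 4458 bp long, was covered only over 3.03%, by the peak at its TSS. The widest peak of the chromosome lies 161114 bp from this TSS, in a group of 18 peaks, chr20:22401891-22572240, of which 70.1% was covered. This group ends before the peak at the TSS of FOXA2, which is not part of it.

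JAG1, whose product activates Notch receptors in bile duct formation, lies partly in 1 of the 10 windows and beside another. The window chr20:10660001-10760000 was covered over 54.1% by 10 peaks, 7 of which overlap the lncRNA LINC01752 upstream of JAG1, itself covered over 68.8%. In chr20:10500001-10600000, 56.7% lay in 8 peaks inside SLX4IP, the neighbour of JAG1 on its other side. SLX4IP held 17 peaks over 40.2% of its body, while JAG1 held 1 peak over 9.03%. Within 100 kb of the TSS of JAG1 there were 14 peaks, 9 upstream and 5 downstream, that covered 37.0%. The nearest began 1392 bp from the TSS.

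On the long arm, 2 windows lay around CYP24A1, the mitochondrial enzyme that inactivates vitamin D, and the genes ZNF217 and BCAS1. The window chr20:53750001-53850000 was covered over 63.6% by 8 peaks in the gap between ZNF217, 140093 bp before it, and BCAS1, 86776 bp after it. It contains 1 lncRNA, ENSG00000225563, whose TSS window was wholly in peaks. In chr20:54100001-54200000, 58.0% lay in 8 peaks, the widest of 24930 bp at chr20:54097801-54122730, beyond the 3′ end of CYP24A1. CYP24A1 itself held 2 peaks over 18.9% of its body, and a further peak, chr20:54175261-54178990, began 1275 bp upstream of its TSS.

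The other 4 windows lay on the short arm. At chr20:17790001-17890000, between BANF2 and SNX5, 62.6% was covered by 12 peaks, at the highest GC content of the 10 windows, 48.4%. The window chr20:21000001-21100000, with LINC00237, was covered over 57.9% by 9 peaks. In chr20:14970001-15070000, inside MACROD2, an ADP-ribosylhydrolase gene, 51.0% was covered by 6 peaks, among them the second widest of the chromosome with 27860 bp. The tenth window, chr20:8110001-8210000, lies within PLCB1, which encodes a phospholipase C, and was covered over 50.1% by 10 peaks. In all, 6 of the 10 windows overlap a protein-coding gene, and the other 4 hold no protein-coding gene but at least 1 lncRNA gene.

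At the other extreme, the longest stretch without a peak was chr20:26314701-29443640, 3129 kb around the centromere. It holds 92953 bases that are N (unassembled) in hg38, and whether reads could be mapped in such stretches was not tested. The next, chr20:39348001-40358760, spans 1011 kb without a protein-coding gene. In chr20:30819311-31516850, 698 kb without a peak, 7 beta-defensin genes and REM1 lie. That stretch holds 102506 N bases. The stretch chr20:45973291-46490000, 517 kb, contains 7 protein-coding genes, among them the matrix metalloproteinase MMP9, the immune receptor CD40 and the neuronal genes SLC12A5 and CDH22. Soon after this stretch, SLC13A3 held 6 peaks over 39.3% of its body. Segments of 418 kb from PLCB1 into PLCB4, of 418 kb reaching from upstream of SLC24A3 into that gene, and of 410 kb in PTPRT were also free of peaks.

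Of the 1469 midpoints, 718 lay within protein-coding genes, or 48.9% (95% Wilson interval 46.3 to 51.4%), and nearly all of these were intronic. Exons of the canonical transcript held 24, or 1.63% (1.1 to 2.42%), and first introns 219, or 14.9% (13.2 to 16.8%). On the other chromosomes the shares were 51.1% in genes, 2.08% in exons and 14.5% in first introns. A further 167 midpoints, 11.4% (9.84 to 13.1%), lay in lncRNA genes only, against 15.4% (15.0 to 15.8%) elsewhere. The remaining 584, or 39.8% (37.3 to 42.3%), lay outside both kinds of gene, against 33.5% (32.9 to 34.0%) elsewhere. In that share chromosome 20 ranked 1 of 22 autosomes, just above chromosome 4 with 39.1%, although it has more genes per Mb than most. Protein-coding genes take up 44.5% of its bases, rank 12 of 22.

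Midpoints closer than 1 kb to a protein-coding TSS numbered 33, or 2.25% (1.60 to 3.14%), against 2.77% (2.59 to 2.96%) elsewhere. Closer than 10 kb lay 321, or 21.9% (19.8 to 24.0%), against 19.3% (18.8 to 19.7%) elsewhere. The share of the chromosome's bases at these distances was not computed, so these values show neither avoidance nor preference of TSSs. With the TSSs of genes of any type, 41.1% were closer than 10 kb. Farther than 100 kb lay 24.6% (22.4 to 26.8%), against 29.1% (28.5 to 29.6%). Around the 546 TSSs of the chromosome, mean cover rose to 15.4% in the step from 1750 to 1500 bp upstream and fell to 3.77% from 500 to 750 bp downstream. The mean from 2500 to 1000 bp upstream, 14.3%, was 2.52 times that within 250 bp of the TSS, 5.65%. On the other autosomes the same ratio was 2.00, at 6.72% and 3.35%. Set against the cover of the whole sequence, the maximum was 2.19 times that of chromosome 20 and, elsewhere, 2.47 times that of the other autosomes, and the minimum was 0.536 times against 0.858 times. Relative to its own cover, chromosome 20 thus had the lower maximum and the lower minimum, with no test of the difference.

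**Figure D4:**
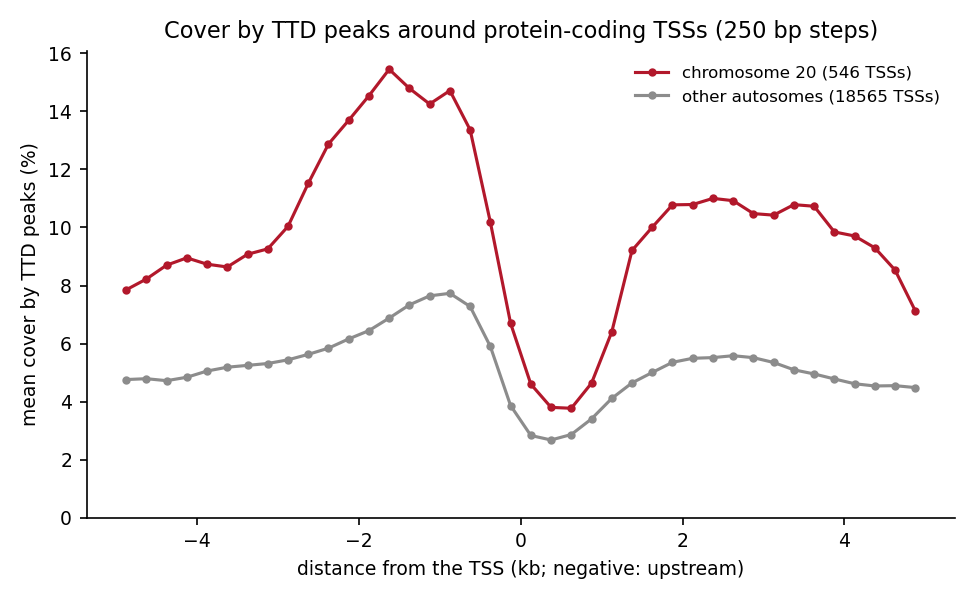
Mean cover by TTD peaks (percent) in steps of 250 bp against the distance from the TSS, with transcription to the right, for the 546 protein-coding TSSs of chromosome 20 (red) and the 18565 of the other autosomes (grey). Both lines dip at the TSS, and chromosome 20 rises to 15.4% upstream against 7.73% elsewhere.

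The share of genes with a peak depends in part on the number of peaks per Mb, on which the chromosome was selected. It is given as a description. Of its 546 protein-coding genes, 272 had a peak in the body, or 49.8% (95% Wilson interval 45.6 to 54.0%), beside 33.8% of the 19487 others and 54.5% on chromosome 2. A peak within 2.5 kb of the TSS was found for 176 genes, or 32.2% (28.5 to 36.3%), beside 16.5% elsewhere. Within 100 kb of the TSS, 524 genes, 96.0%, had a peak, beside 77.4% elsewhere, with a median of 5 peaks against 2. The TSS itself lay in a peak for 26 genes, 4.76% (3.27 to 6.89%), beside 2.89% (2.66 to 3.13%) elsewhere. By this measure chromosome 20 ranked 5 of 22 autosomes, and 1 of 22 by peaks within 2.5 kb of the TSS. The share with a peak in the body rose with gene length. In the shortest quartile of genes, by their length over all chromosomes, 17.1% of 140 had a peak in the body, against 7.91% elsewhere, and in the longest 94.5% of 109, against 69.2%.

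PLCB1 held the most peaks, 41 over 22.1% of its 891 kb, and they were denser toward its 5′ end, with 29 of 41 midpoints in the first 50% of its length. MACROD2, at 2058 kb the longest gene of the chromosome, held 26 peaks over 4.70% of its body, and SLX4IP and KIF16B, a kinesin motor gene, held 17 and 15. Other long genes held fewer peaks, though the cover of TSHZ2 was above that of MACROD2. PTPRT, a receptor tyrosine phosphatase gene of 1117 kb, held 8 peaks over 2.00%, TSHZ2, a zinc-finger gene of 523 kb, 10 over 6.07%, and the cadherin gene CDH4, 688 kb long and in the sparse end of the long arm, 3 over 0.944%. After SPTLC3, the largest cover among genes of at least 10 kb was found in ZSWIM3, with 4 peaks over 53.0% of its body, all in its first intron. CST3, which encodes cystatin C, followed with 41.1% in 1 peak of 8470 bp.

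The genes of 10 lists were then described by their own counts beside the 49.8% with a peak in the body, the 32.2% with a peak within 2.5 kb of the TSS and the median of 5 peaks within 100 kb that all 546 genes had. Genes of a list can be neighbours and share peaks. Only 1 TSS was used for each gene, so other promoters, as HNF4A has, were not considered.

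Among 9 transcription factors and signals of the liver lineage, 4 had a peak in the body, 3 within 2.5 kb of the TSS and all 9 within 100 kb, with a median of 5. FOXA2 and JAG1 led, with 14 peaks each within 100 kb. HNF4A, the nuclear receptor that maintains hepatocyte identity, had 11, 6 upstream and 5 downstream, of which 3 lay in its body. These were chr20:44391911-44393150 in the first intron, chr20:44414571-44416750 in a later intron and chr20:44426751-44430060 near its 3′ end, and together they covered 8.72% of the gene. The nearest peak to its TSS ended 2459 bp upstream. CEBPB, a bZIP factor of liver and acute-phase genes, and BMP2, a ligand of the TGF-beta family, had 4 peaks each within 100 kb and none in the body. ID1, an inhibitor of bHLH factors, had 7 and the nearest was 4088 bp away. SNAI1, a repressor of epithelial genes, had 5, the nearest 5180 bp away. BMP7, another ligand of the TGF-beta family, had 1, inside an intron and 55941 bp from its TSS.

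Another 20 genes were listed from general knowledge under hepatic metabolism and plasma proteins. Expression was not measured here, and the members need not be specific to liver. Of these genes, 12 had a peak in the body, or 60.0%, and 10 within 2.5 kb of the TSS, or 50.0%. All 20 had at least 3 peaks within 100 kb, with a median of 8.5, above the 5 of all genes, and they are longer, with a median of 40122 bp against 24231 bp. The TSS lay in a peak for 4 of them, beside 26 of all 546 genes. PCK1, the gluconeogenic enzyme phosphoenolpyruvate carboxykinase, had the peak chr20:57555691-57561330 over its TSS, which covered 55.02% of the window around it. LBP, the lipopolysaccharide-binding protein of plasma, had a peak of 1340 bp at its TSS, another of 2450 bp upstream and 2 in introns. SLC23A2, a vitamin C transporter, held 7 peaks over 16.1% of its body, and SPTLC3 is described above. SLC13A3, a dicarboxylate transporter, reached 39.3% in 6 peaks, the widest of 22380 bp at chr20:46657481-46679860, and ACSS1, a mitochondrial acetyl-CoA synthetase, 24.2% in 4. In the glutathione synthetase gene GSS the single peak lay in the first intron. HAO1, the glycolate oxidase of peroxisomes, is a liver-enriched gene that held no peak in its 57.5 kb, and the nearest lay 34303 bp from its TSS. PYGB, LPIN3, TTPAL and PLTP also had none in the body, and 9 or 10 within 100 kb.

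The 16 genes known from recurrent 20q gain in cancer had a peak in the body in 6 cases, or 37.5%, with 5 of 16 near the TSS and a median of 7.5 peaks within 100 kb. ZNF217, a transcriptional repressor, was covered over 34.3% by 3 peaks and BCL2L1, an inhibitor of apoptosis, over 32.5% by 3. TOP1, DNA topoisomerase I, held 5 peaks over 22.7%, 4 of them in its first 25 kb. DNMT3B, a de novo DNA methyltransferase, had 1 peak over 4.73%. The mitotic genes TPX2, AURKA and UBE2C had no peak in the body, nor had E2F1, MYBL2 and SRC. Of these, TPX2, SRC and E2F1 had a peak near the TSS, 541, 875 and 2136 bp from it. AURKA, RAE1 and EEF1A2, in the sparse end of the long arm, had 3, 1 and 1 peaks within 100 kb. Of 4 imprinted genes, BLCAP held 2 peaks over 19.6% and L3MBTL1 4 over 16.8%. NNAT, within BLCAP, held none, and GNAS had no peak within 100 kb, the nearest being 142333 bp from its TSS.

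Clusters of related genes differed from one another. None of the 13 beta-defensin genes, antimicrobial peptides of epithelia, had a peak in the body or within 2.5 kb of the TSS, and the median within 100 kb was 2. These genes are short, with a median of 5323 bp, and 7 of them lie in a stretch without peaks, given above. The 10 cystatin genes, inhibitors of cysteine proteases, are shorter still, with a median of 3730 bp, but had a median of 9.5 peaks within 100 kb, from 1 at CST2 and CST5 to 14 at CST9. CST3 and CST5 had a peak in the body. The TSS of CST5 lay in a peak of 4640 bp. Of 8 BPI fold genes, secreted lipid-binding proteins of the airway, 5 had a peak in the body, and the TSS window of BPIFB2 was wholly in peaks. In the whey acidic protein locus, which encodes protease inhibitors and semenogelins, 7 of 15 genes had a peak in the body. The TSS of PI3, elafin, and of SLPI, both inhibitors of neutrophil elastase, lay in a peak, while SEMG1 and SEMG2 had none in the body. Of 5 signal regulatory protein genes, receptors of immune cells, SIRPB1 and SIRPG had a peak in the body, and the 5 had a median of 4 within 100 kb.

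The 20 neural and developmental genes were listed from general knowledge as having little use in liver, and expression was not measured here. Of these genes, 6 had a peak in the body, or 30.0%, and 1 near the TSS, or 5.00%. Both shares were below those of all genes, as was their median of 3 peaks within 100 kb. The 20 genes are shorter, with a median of 16633 bp against 24231 bp, and 4 of them lie in the sparse end of the long arm. The 1 with a peak near the TSS was MACROD2. SNAP25, a synaptic SNARE protein, held 4 peaks over 4.02% and CHGB, a granin of secretory granules, 1 over 11.1%. NKX2-2, NKX2-4 and PAX1, homeobox and paired-box factors that share the short arm with FOXA2, had none in the body and 3, 7 and 1 within 100 kb. The cadherin gene CDH22 had none within 100 kb.

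**Figure D5:**
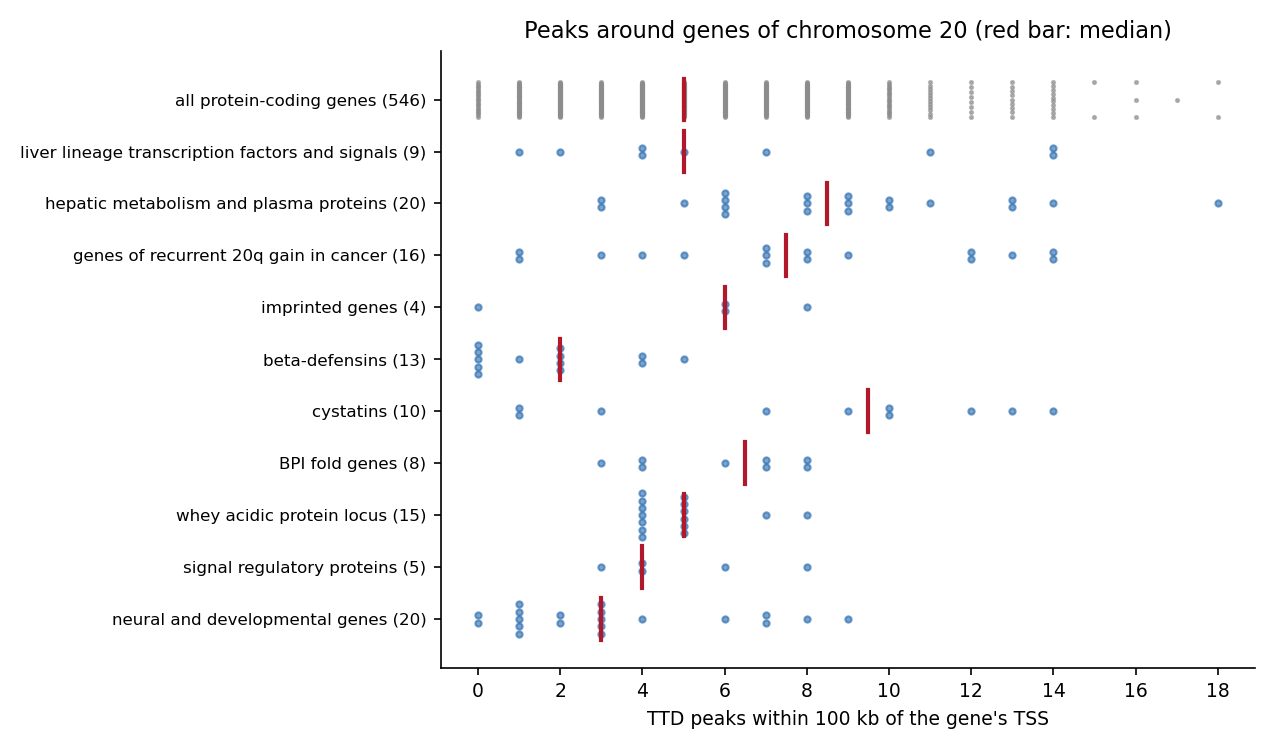
Each point is a gene, placed by the number of TTD peaks within 100 kb of its TSS, for all 546 protein-coding genes of chromosome 20 (grey) and the members of 10 lists (blue), and red bars are medians. The medians run from 2 for beta-defensins to 9.5 for cystatins, with 5 over all genes.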

How the data were processed

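Per the labels and the methods, the authors clipped reads (Trimmomatic 0.38), aligned them to hg38 (HISAT2 2.2.1), computed RPKM coverage in 10 bp bins (deepTools 3.3.2), averaged both TTD replicates, and called broad peaks (MACS2 2.1.1). Blacklisted regions were removed and peaks were curated by hand. The deposited list gives positions and widths in bp, on a 10 bp grid. Read depth is not given by it, and the tracks of the single libraries were not analysed here.

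All values were computed by interval arithmetic (Python 3.11.15, numpy 2.4.6, pandas 2.3.3, scipy 1.17.1) with GENCODE release 44 and 1 TSS per gene. A peak belongs to the bin or gene of its midpoint, and a gene body or window has a peak at any overlap. Windows of 100 kb were moved by 10 kb. Genes were named if they overlap the 10 densest windows, are among the 5 with most peaks, largest cover or greatest length, or belong to a list. Other genes in the text were chosen after their values were seen. The members, lists and tests were chosen with earlier results of these data known. The procedures were tested on simulated data. Alternatives were a stricter list (peaks of at least 2250 bp, the median of all), joined peaks, other bins, windows, gene sets and lengths. Some members of the gene lists and some sequences are not reported here.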

Additional observations from a re-analysis of the deposited data

How the results depend on the processing

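Of 28 alternative values, 15 stayed within the counting interval or tolerance of the reported one and 1 reversed a direction. Chosen after seeing the data, it left out the gene-free stretch and the last 9.44 Mb, and gave a ratio of long to short arm of 1.002 in place of 0.828. With the stricter list of wider peaks, chromosome 20 held 11.7 peaks per Mb and 5.56% cover, the ratio of long to short arm was 0.671, 18.7% of peaks were closer than 10 kb to a TSS, 32.97% of genes had a peak in the body, and the median GC content was 43.96%. With peaks less than 1 kb apart joined, there were 21.3 per Mb. Under these settings and without N bases, chromosome 20 still ranked 1 of 22 in peaks per Mb, at 1.27 to 1.35 times chromosome 2. The rank correlation of peaks with gene starts was 0.33 in 2 Mb bins and 0.33 for percent cover. In 200 kb windows the largest cover was 69.5%. With genes of any type, 60.9% of peaks lay in a gene and 41.1% were closer than 10 kb to a TSS. No paired analysis was made, because peak calling used the mean of both replicates and the tracks of the single libraries were not analysed. No result comes from a test. Without heights, strong and weak peaks count alike.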
